A study of Danio rerio with 18 samples.

Results

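The levels of 7 zebrafish genes that encode early transcription factors were followed across 18 RNA-seq libraries. The genes were osr1, otx1, klf17, irx7, irx1b, tp63 and foxi1. They were taken by name from the 32520 genes of the deposited tables, each name matched 1 identifier, and all 7 had enough counts to be among the 14514 genes tested. The libraries came from whole embryos at 4 h post-fertilisation (hpf). RfxCas13d is a CRISPR nuclease that cuts the RNA its guide RNA (gRNA) matches, and the series is concerned with improving such RNA targeting in zebrafish. Embryos of 8 groups carried RfxCas13d with a cocktail of 25 gRNAs, at an amount stated as 10 pg per embryo, and those of the control group carried RfxCas13d, which all groups thus share, with no cocktail named. Each group had 2 libraries. Neither the genes that the gRNAs match, nor the strain, nor the number of embryos pooled in a library, nor whether replicates came from separate clutches is given in the sources used here. The p-values therefore measure only the spread between these libraries, which may be technical, and none of the genes described here is presented as a gRNA target.

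At this stage the zebrafish embryo passes from mRNA laid down by the mother to mRNA made from its own genome. Pou5f3, SoxB1 factors and Nanog are known for opening that first transcription. Among the earliest genes switched on are transcription factors that mark out the regions and layers of the embryo. The 7 genes were grouped by name, with otx1 set beside a group of early zygotic genes, and are known for different tissues. Whether each of them was transcribed from the embryo's own genome at this stage was not tested. The zinc finger gene klf17 is known in zebrafish for the hatching gland, and foxi1, a forkhead gene, for the otic placode. The ΔN form of tp63 is known as a regulator of the embryonic epidermis downstream of BMP signalling. The Iroquois homeobox genes irx7 and irx1b are known in zebrafish for patterning the midbrain and hindbrain. Osr1 is an Odd-skipped zinc finger protein known for kidney and mesoderm development, and Otx1 is a homeobox protein known for the forebrain and midbrain.

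Gene counts per library ran from 2544027 to 4864939, and 1 library, Cocktail 1 replicate 1, stood apart from its partner. Its difference from replicate 2 exceeded counting noise by a chi-square of 29.1 per degree of freedom, against 21.5 in Cocktail 3, whose replicates also differed more than those of the rest, and 3.40 to 7.41 in the other groups. The share of reads that mapped nowhere also moved with the groups. It was 10.1% and 10.8% in the control libraries and 21.6% to 47.3% in the cocktail libraries, and its part in the results was not tested. Values below are normalised CPM, which are read counts relative to library size, scaled between libraries by the trimmed mean of M values (TMM), unless TPM is named. Cocktail 1 replicate 1 is given apart throughout, and "the 15 other cocktail libraries" leaves it out.

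Levels of different genes were compared in TPM, a unit scaled by gene length, which the second set of deposited values was taken to be. In the control the order was klf17 at 354 ± 16.9 TPM, foxi1 at 122 ± 13.9, irx7 at 52.8 ± 6.29, osr1 at 38.01 ± 9.08, otx1 at 26.3 ± 1.24, irx1b at 3.01 ± 0.580 and tp63 at 2.45 ± 1.58 (SD, n = 2 for each). The control libraries of neighbouring genes in this order did not overlap, except those of irx1b and tp63. In the 15 other cocktail libraries the first 3 genes kept their places, with means of 270 ± 50.2, 172 ± 30.8 and 110 ± 21.8 TPM (SD, n = 15). The gene otx1 stood next there at 86.9 ± 22.8 TPM, above osr1 at 13.9 ± 7.77 TPM, the reverse of their order in the control. The last places were also exchanged, with tp63 at 6.18 ± 2.98 TPM and irx1b at 2.16 ± 1.53 TPM. In Cocktail 1 replicate 1 the order was different again: otx1 led at 214 TPM and tp63 followed at 12.5 TPM, while irx7 had 7.10, foxi1 4.58, klf17 4.42, osr1 2.22 and irx1b 2.21 TPM.

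**Figure D1:**
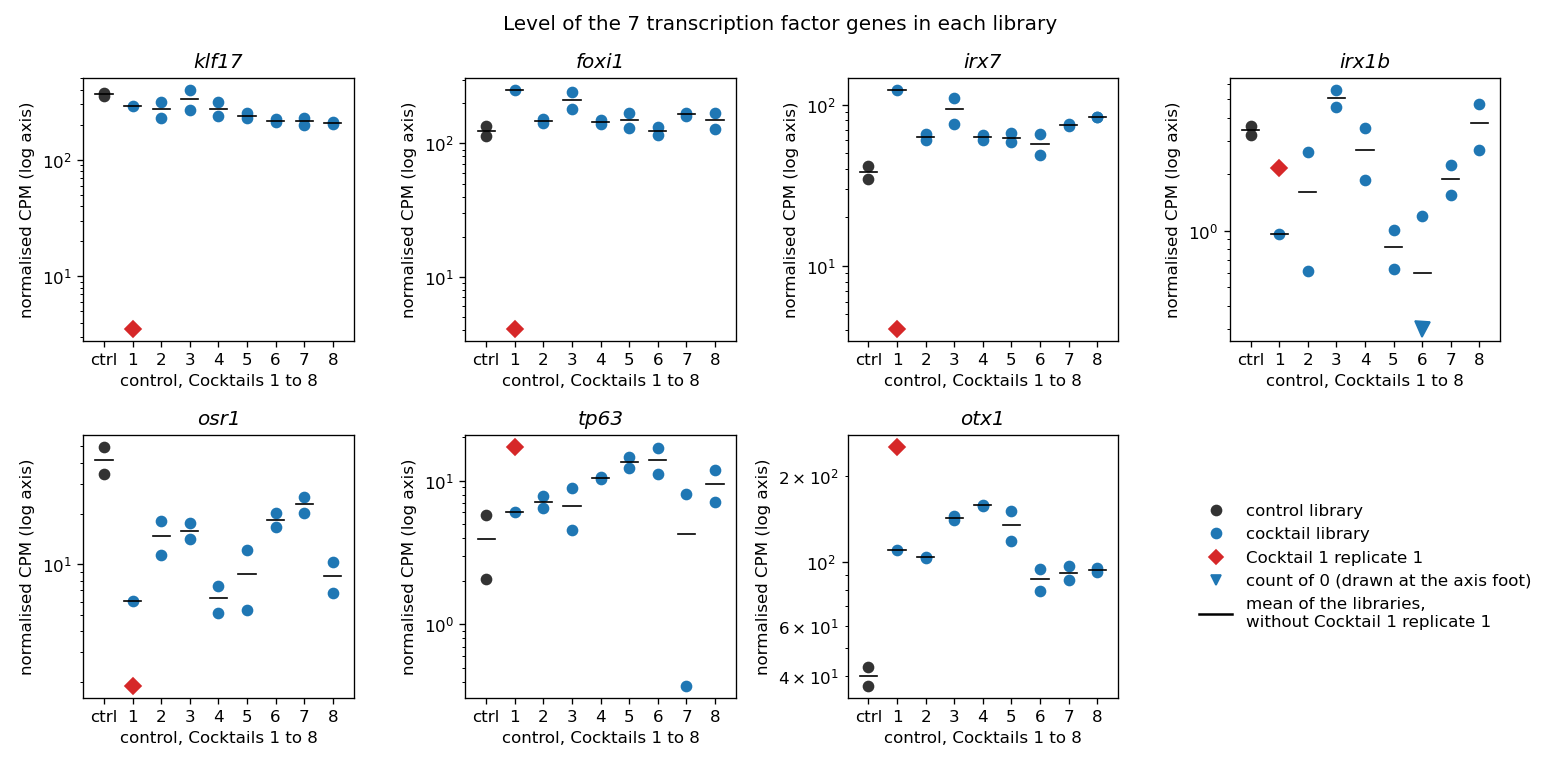
Normalised CPM (log axis) of each gene in every library of the control and of Cocktails 1 to 8, with bars at the group mean without Cocktail 1 replicate 1, which is drawn as a red diamond. The diamond lies below all other libraries for klf17, foxi1, irx7 and osr1 and above them for tp63 and otx1; all blue points lie below both control points for osr1 and above both for otx1 and irx7.

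Changes shared by the groups were sought by comparing the average of the 8 cocktails with the control. The gene osr1 fell and otx1 rose, with or without Cocktail 1 replicate 1, while the other 5 genes did not pass with all 18 libraries (edgeR quasi-likelihood test, adjusted p under 0.05). Of the 7 genes, 1 was thus lower and 1 higher, where 13.6% of all genes tested were lower and 15.1% higher. In the fit without Cocktail 1 replicate 1, 2 genes were lower and 2 higher, as klf17 and irx7 were then called too, where 15.8% of all genes tested were lower and 14.6% higher. These are whole embryos, so fewer cells of a type and less RNA per cell cannot be told apart.

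The level of osr1 was 34.1 and 49.4 CPM in the 2 control libraries. It lay between 5.15 and 25.2 CPM in the 15 other cocktail libraries, with a median of 12.1, and at 1.89 CPM in Cocktail 1 replicate 1. All cocktail libraries were thus below both controls, and their counts ran from 7 to 81 against 148 and 164. The mean over the 15 libraries was 3.19-fold lower than the control mean. The fitted log2 change was -1.95 ± 0.30 (SE, edgeR adjusted p = 5.53e-05) with all libraries and -1.88 ± 0.27 (adjusted p = 8.59e-06) without Cocktail 1 replicate 1.

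The level of otx1 moved the other way, from 36.9 and 43.1 CPM in the controls. It lay between 79.3 and 158 CPM in the 15 other cocktail libraries, with a median of 104, and at 252 CPM in Cocktail 1 replicate 1. Every cocktail library was above both controls, and the mean over the 15 was 2.89-fold higher than that of the control. The log2 change was 1.59 ± 0.23 (SE, edgeR adjusted p = 3.63e-05) with all libraries and 1.48 ± 0.17 (adjusted p = 4.54e-07) without Cocktail 1 replicate 1.

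For irx7 the control libraries held 41.9 and 34.6 CPM, and the 15 other cocktail libraries 48.9 to 123 CPM with a median of 66.4. All 15 were above both controls. The log2 change was 0.85 ± 0.74 (SE, edgeR adjusted p = 0.440) with Cocktail 1 replicate 1, where the gene had 4.05 CPM, and 0.96 ± 0.20 (adjusted p = 0.000599) without it. Over the 15 libraries, 12.2% of all genes tested lay wholly above both controls, as otx1 and irx7 did among the 7. In the other direction 12.5% lay wholly below, as osr1 did. With Cocktail 1 replicate 1 included, 11.9% of all genes lay wholly above, among them otx1, and 12.3% wholly below, among them osr1.

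The level of klf17 was 354 and 377 CPM in the controls and 199 to 395 CPM in the 15 other cocktail libraries, with a median of 230. Of these libraries 14 were below both controls, and Cocktail 3 replicate 2 was above both. Its log2 change was -0.66 ± 0.77 (SE, edgeR adjusted p = 0.574) with Cocktail 1 replicate 1, at 3.51 CPM, and -0.55 ± 0.14 (adjusted p = 0.00377) without it. The forkhead gene foxi1 had 114 and 135 CPM in the controls and 116 to 250 CPM in the 15 other cocktail libraries, of which 11 were above both controls and none below both. Its change of 0.27 ± 0.80 did not pass (adjusted p = 0.840), nor did that of 0.38 ± 0.16 without Cocktail 1 replicate 1 (adjusted p = 0.0656).

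Few reads lay behind tp63 and irx1b. The epidermal regulator tp63 had 9 and 19 counts in the controls, or 2.07 and 5.72 CPM, and a median of 8.86 CPM in the 15 other cocktail libraries. Of these 13 were above both controls, and 1, Cocktail 7 replicate 1, was below both with a single count. The log2 change of 1.24 ± 0.61 did not pass (SE, edgeR adjusted p = 0.137), nor did 1.11 ± 0.58 without Cocktail 1 replicate 1 (adjusted p = 0.156). Without Cocktail 7 replicate 1 it was 1.35 ± 0.50 (adjusted p = 0.0498), which is only just under the threshold. In the other 23 alternatives run it did not pass. With 1 library left out at a time the estimate ran from 0.66 to 2.105.

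The counts of irx1b were 14 and 12 in the controls and 0 to 17 in the cocktail libraries. In Cocktail 6 replicate 2 the count of 0 allows up to 0.940 CPM (3 counts, counting error only). Both libraries of Cocktail 3 had 17 counts, and at 4.53 and 5.58 CPM they lay above the controls at 3.23 and 3.61 CPM, while 11 of the 15 other cocktail libraries lay below both. The log2 change was -0.89 ± 0.71 (SE, edgeR adjusted p = 0.382) and -0.99 ± 0.72 without Cocktail 1 replicate 1 (adjusted p = 0.331).

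**Figure D2:**
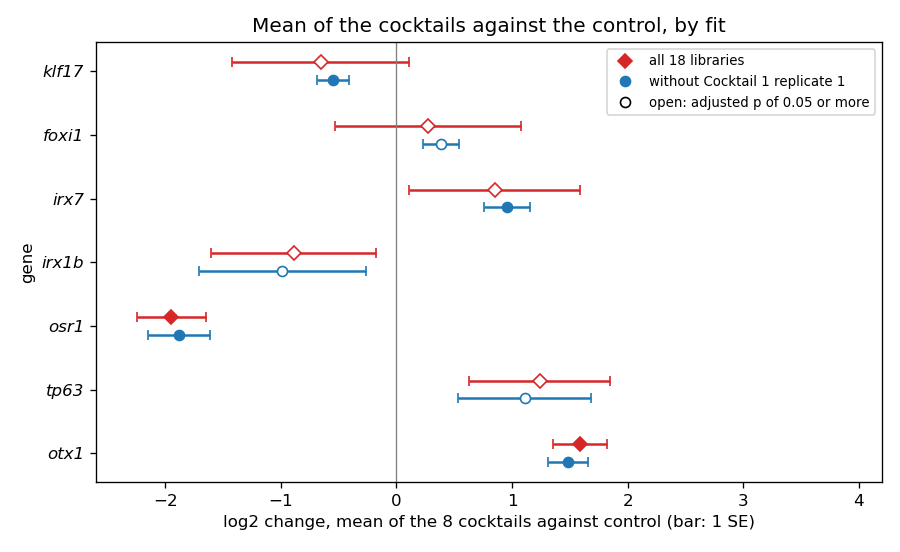
Log2 change of each gene for the mean of the 8 cocktails against the control, with all 18 libraries (red diamonds) and without Cocktail 1 replicate 1 (blue circles); bars are 1 SE and filled symbols have an adjusted p under 0.05. The estimates of klf17, foxi1 and irx7 move little between the fits while their SE drops from between 0.74 and 0.80 to between 0.14 and 0.20.

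The library that stood apart did not treat the 7 genes alike. In Cocktail 1 replicate 1, klf17, foxi1 and irx7 had 13, 15 and 15 counts, against 908, 782 and 384 in replicate 2 of the same cocktail. The normalised levels were 82.7-fold, 61.7-fold and 30.3-fold lower than in replicate 2. The level of osr1 was 3.21-fold lower, from 19 counts to 7, which is 1.89 CPM with a 95% Poisson interval of 0.760 to 3.90 (counting error only). In the same library otx1 had 931 counts against 345 in replicate 2, and tp63 had 63 counts against 19. Their levels were 2.28-fold and 2.80-fold higher than in replicate 2. The remaining gene, irx1b, had 8 counts against 3.

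Cocktail 1 replicate 1 was the lowest of all 18 libraries for 4 of the 7 genes and the highest for 2, otx1 and tp63. Among all genes tested it was lowest for 11.7% and highest for 12.2%. A level at least 8-fold below replicate 2, on the log2 CPM scale with a prior count of 2, was seen for 3 of the 7 genes and 2.44% of all genes. One at least 2-fold above it was seen for 2 of the 7, otx1 and tp63, and 12.1% of all genes. These shares describe 1 library and carry no test. Against the control mean, the levels of klf17, foxi1, osr1 and irx7 were 104-fold, 30.7-fold, 22.1-fold and 9.45-fold lower there, while those of otx1 and tp63 were 6.29-fold and 4.37-fold higher. The gap of osr1 to replicate 2 was smaller than its gap to the control, since replicate 2 was itself at 6.08 CPM. The 8 counts of irx1b, at 2.16 CPM with a 95% Poisson interval of 0.933 to 4.26, do not separate it from the control mean of 3.42 CPM. Levels far below both replicate 2 and the control were thus seen for klf17, foxi1 and irx7, and not for otx1 or tp63. The level of osr1 was far below the control, but it was also low in other libraries, such as those of Cocktail 4 at 5.15 and 7.43 CPM. This library was set apart beforehand because early zygotic transcripts nearly vanish there, so these values describe it and are no separate support for that.

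Other early regulators were placed beside the 7 genes from lists of known genes that left the 7 out. In Cocktail 1 replicate 1, 12 of 15 tested ventral and epidermal regulators, 11 of 13 neural and anterior regulators and 10 of 11 mesendoderm regulators were at their lowest of the 18 libraries. Of all genes tested 11.7% were. The library was set apart beforehand for its low early zygotic transcripts, so these counts too describe it and are no separate support. Their median gaps to replicate 2 were -4.59, -3.41 and -3.72 log2 units, and the gaps of klf17, foxi1 and irx7 were -6.15, -5.75 and -4.73. Of 20 tested maternal transcripts, known from the oocyte, 9 were at their highest there and none at its lowest, with a median gap of 0.36. Of all genes tested 12.2% were at their highest there. The gaps of otx1 and tp63 were 1.18 and 1.40, and that of irx1b was 0.83. Gaps of that size were also seen in single genes outside the maternal list. Among the 15 ventral and epidermal regulators msx1b was at 1.47, with 4.96 CPM in the control. It was the only 1 of them at its highest there. Among the 8 regulators of genome activation ep300a was at 1.59, and 2 were at their highest there and 2 at their lowest. Of these regulators, nanog and pou5f3 still had 1227 and 643 CPM in Cocktail 1 replicate 1. Whether transcripts of that list were maternal was not tested.

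**Figure D3:**
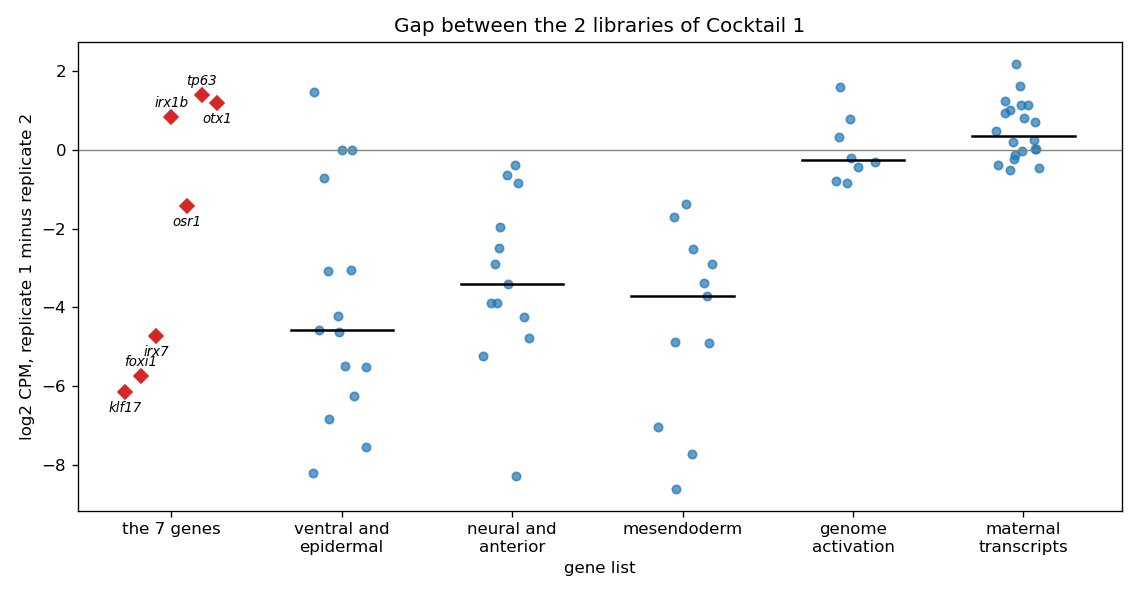
Log2 CPM (prior count of 2) of Cocktail 1 replicate 1 minus replicate 2 for the 7 genes (red diamonds, named) and for the tested genes of 5 lists (blue points, bar at the median). Of the diamonds, 3 lie between -6.15 and -4.73 beside the lists of early embryonic regulators, and osr1 lies at -1.42. Those of irx1b, otx1 and tp63 lie between 0.83 and 1.40. This is within the span of the maternal list. The ventral and epidermal list reached that range only through msx1b, at 1.47, with its median at -4.59. The genome activation list reached it only through ep300a, at 1.59, with its median at -0.25.

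Markers of the embryo's layers moved in that library as well. The summed level of the 15 enveloping layer markers was 6978 and 7352 CPM in the controls, 859 to 3008 CPM in the 15 other cocktail libraries and 33.0 CPM in Cocktail 1 replicate 1, where the defining keratin genes krt4 and krt18a.1 were at 0. The 8 yolk syncytial layer markers summed to 1065 and 1110 CPM in the controls, 408 to 967 CPM in the 15 libraries and 33.0 CPM in this library, with mxtx1 at 0. Of that last sum fn1a made up 29.7 CPM, and its means were 33.8 CPM in the control and 32.2 in the 15 libraries. The members did not move alike in the 15 libraries. There mxtx2 had a mean of 374 CPM against 237 in the control, while mttp had 17.3 against 187. The 6 germ plasm markers summed to 574 and 608 CPM in the controls, 659 to 1065 CPM in the 15 libraries and 1161 CPM in Cocktail 1 replicate 1. Within this list ddx4 went the other way, with means of 275 CPM in the control and 227 in the 15 libraries, and 194 in Cocktail 1 replicate 1. The lists share genes, so they are not separate observations. The germ plasm markers ddx4, dazl, nanos3 and dnd1 are also among the maternal transcripts. The yolk syncytial layer markers mxtx2 and gata6 are also among the mesendoderm regulators. The part of these layers in the levels of the 7 genes was not tested.

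In the comparison of all cocktails with the control, the lists also differed from several of the 7 genes. The background to the counts of each list is the share over all genes tested. It was 13.6% lower and 15.1% higher with all libraries, and 15.8% and 14.6% without Cocktail 1 replicate 1. Of 15 tested ventral and epidermal regulators, 6 were lower and none higher, with a median log2 change of -1.30 where that of all genes was 0.03. Without Cocktail 1 replicate 1, 12 of 17 were lower, again with none higher, and the median was -1.19. Of the called genes, cdx4 and eve1, homeobox genes of the tail and ventral side, had a mean of 0.241 and 0.581 CPM in the 15 libraries against 4.05 and 12.2 CPM in the control. The gene tfap2c, of the AP-2 factors of ectoderm, changed by -2.95 ± 0.43 (edgeR adjusted p = 2.72e-05) and ved, a ventral repressor and the most abundant of the list, by -2.07 ± 0.66 (adjusted p = 0.0437).

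Of 13 tested neural and anterior regulators, 7 were lower and none higher (median log2 change -1.50), or 9 of 14 lower without Cocktail 1 replicate 1. Among them foxd5, a forkhead gene of the neural plate, changed by -3.11 ± 0.31 (edgeR adjusted p = 2.92e-07) and zic2b, a zinc finger gene, by -2.12 ± 0.52 (adjusted p = 0.0132). The most abundant of them, sox11b, changed by -0.43 ± 0.15 (adjusted p = 0.0410). Of 11 mesendoderm regulators, 6 were lower and none higher (median -1.80), or 8 lower and 1 higher without Cocktail 1 replicate 1. The rise of otx1 thus stood beside lists in which no tested gene was called higher with all libraries. Without Cocktail 1 replicate 1, the log2 change of irx7 was 0.96, and that of the mesendoderm gene mxtx2 was 0.61.

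Regulators of genome activation and maternal transcripts are the other genes of the transition. Of 8 genome activation regulators, 3 were lower and 1 higher, and the median log2 change was -0.28, with pou5f3 at -1.21 ± 0.14 (edgeR adjusted p = 1.29e-06) and the SoxB1 gene sox19b at 1.33 ± 0.17 (adjusted p = 4.51e-06). Without Cocktail 1 replicate 1, 2 were higher. Of 20 maternal transcripts, 13 rose and none fell in both fits, with a median log2 change of 0.92. Over all genes tested, 13.6% were lower and 15.1% higher with all libraries. The largest rises were those of buc, the organiser of the Balbiani body (2.42 ± 0.21, adjusted p = 6.51e-08), tdrd6, a Tudor gene of germ granules (2.37 ± 0.38, adjusted p = 7.74e-05) and btg4, a gene of maternal mRNA decay (2.30 ± 0.26, adjusted p = 1.55e-06). The cyclin gene ccnb1, their most abundant, was at 0.16 ± 0.12 (adjusted p = 0.341). The change of otx1, 1.59, lay between the median of this list and its largest values.

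The nearest relatives of the 7 genes were mostly too low to test. Of the 5 Otx family genes only otx1 and otx2a were tested, and otx2a was at -1.50 ± 0.57 (edgeR adjusted p = 0.0551), with 6.81 CPM in the control against 2.77 in the 15 libraries. The other Odd-skipped gene, osr2, was at 0 in the controls, as were foxi2, foxi3a and foxi3b. Of 5 tested Iroquois genes 1 was lower, irx3a at -1.15 ± 0.41 (adjusted p = 0.0401), and without Cocktail 1 replicate 1 irx7 was higher among 8. These counts are near the shares over all genes tested, which were 13.6% lower with all libraries and 14.6% higher without that library.

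Of 13 tested Klf genes 2 were lower and 1 higher, shares that are not above the background by more than a single gene (13.6% and 15.1% of all genes tested). They were klf3 (-1.31 ± 0.29, edgeR adjusted p = 0.00155), klf5l (-0.996 ± 0.29, adjusted p = 0.0132) and klf9 (1.66 ± 0.57, adjusted p = 0.0330). Without Cocktail 1 replicate 1, 4 of 15 were lower, as klf2b and klf17 joined them, and 1 was higher. Of all genes tested in that fit 15.8% were lower and 14.6% higher, and klf17 is itself 1 of the 7 genes. In Cocktail 1 replicate 1, 4 of the 13 were at their lowest of the 18 libraries and 2 at their highest, where 11.7% and 12.2% of all genes tested were. Those at their lowest were klf17, klf2a at 4.59 CPM, klf2b at 5.13 and klf11b at 11.1. The 2 at their highest were klf7b and klf11a. The level of klf8 was 29.2 CPM against 40.8 in the control. The drop in that library was therefore seen in some Klf genes and not in all.

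Each cocktail was then compared with the control, and a gene was called where it differed at least 2-fold with an adjusted p under 0.05. These comparisons share the 2 control libraries and are set side by side. The gene otx1 was higher in all 8 cocktails and osr1 lower in 6, and no other gene was called with all libraries. Of the 56 pairs of gene and cocktail, 8 (14.3%) were higher and 6 (10.7%) lower, where over all genes 8.32% of pairs were higher and 4.22% lower. Without Cocktail 1 replicate 1, 11 pairs (19.6%) were higher and 6 (10.7%) lower, where over all genes 7.88% were higher and 5.06% lower. Leaving out control replicate 1 gave 4 higher and 4 lower pairs, and leaving out control replicate 2 gave 6 and 3, so several calls rested on having both control libraries.

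The cocktails differed in how many genes were called, which is the background to these calls. The share of all genes called higher, the direction of otx1, was 12.6% in Cocktail 1, 6.17% in Cocktail 2, 11.5% in Cocktail 3, 11.4% in Cocktail 4, 9.38% in Cocktail 5, 4.61% in Cocktail 6, 4.52% in Cocktail 7 and 6.32% in Cocktail 8. The share called lower, the direction of osr1, was 7.86% in Cocktail 1, 3.00% in Cocktail 2, 7.70% in Cocktail 3, 6.69% in Cocktail 4, 3.47% in Cocktail 5, 1.14% in Cocktail 6, 1.67% in Cocktail 7 and 2.25% in Cocktail 8. The 2 cocktails in which osr1 was not called, 6 and 7, were thus those with the fewest genes called lower, and they also had the fewest called higher.

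The largest rise of otx1 was in Cocktail 1, at 2.18 ± 0.28 (SE, log2, edgeR adjusted p = 1.42e-05), but it was 1.46 ± 0.24 (adjusted p = 0.000201) from its replicate 2 alone. Beside it stood Cocktail 4 with 1.98 ± 0.28 (adjusted p = 4.11e-05) and Cocktail 3 with 1.83 ± 0.28 (adjusted p = 8.39e-05). The smallest was in Cocktail 6, at 1.12 ± 0.28 (adjusted p = 0.0149). For osr1 the change was -3.40 ± 0.53 (adjusted p = 9.52e-05) in Cocktail 1 and -2.78 ± 0.60 (adjusted p = 0.00242) without its replicate 1. In Cocktail 4 it was -2.72 ± 0.51 (adjusted p = 0.000592). In the fit without that library, 6.51% of all genes were higher in Cocktail 1 and 5.03% lower. The values of Cocktail 6, -1.18 ± 0.46 (adjusted p = 0.135), and Cocktail 7, -0.88 ± 0.46 (adjusted p = 0.261), were not called.

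Without Cocktail 1 replicate 1, 3 calls were added, all for irx7. They were Cocktail 1 at 1.67 ± 0.28 (edgeR adjusted p = 0.000241, from 1 library, whose spread is taken from the other groups), Cocktail 3 at 1.28 ± 0.24 (adjusted p = 0.000327) and Cocktail 8 at 1.12 ± 0.24 (adjusted p = 0.00240). The 2 libraries of Cocktail 3, a group whose replicates differed more than most, had 76.2 and 111 CPM of irx7. In this fit 11.5% of all genes were higher in Cocktail 3 and 6.86% in Cocktail 8. The estimates of irx7 in the other 5 cocktails ran from 0.56 to 0.94. In Cocktails 4, 5 and 7 they missed only the 2-fold minimum (edgeR adjusted p = 0.0341, 0.0482 and 0.0119). The estimates of klf17 in Cocktails 5 to 8, from -0.83 to -0.63, also missed only that minimum (adjusted p from 0.00410 to 0.0201). In the same fit foxi1 was at 1.00 ± 0.24 in Cocktail 1 (adjusted p = 0.00562) and 0.76 ± 0.20 in Cocktail 3 (adjusted p = 0.00569), both under 2-fold and so not called. With Cocktail 1 replicate 1 left out, irx7 and foxi1 had their highest mean levels in Cocktails 1 and 3. For irx7, Cocktail 3 overlapped with Cocktail 8, at 84.1 and 84.2 CPM. The same held for the means of klf17, at 290 CPM in Cocktail 1 and 332 in Cocktail 3, though these overlapped with Cocktails 2 and 4. Cocktail 1 is then 1 library, and these 2 groups were those whose replicates differed most.

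**Figure D4:**
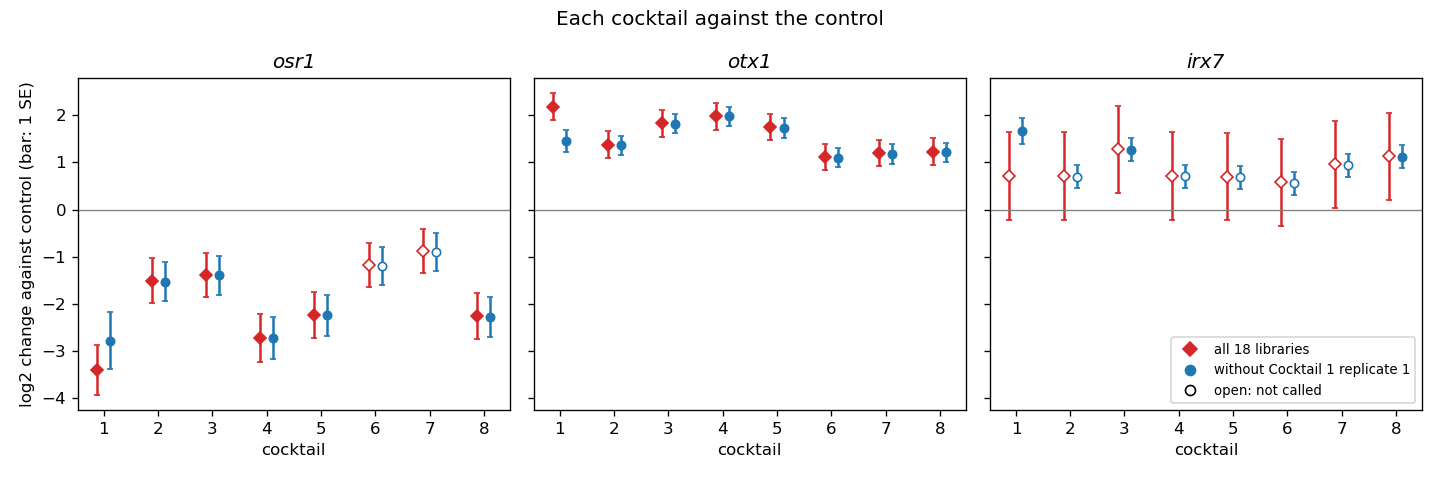
Log2 change of osr1, otx1 and irx7 in each of Cocktails 1 to 8 against the control, with all 18 libraries (red diamonds) and without Cocktail 1 replicate 1 (blue circles); bars are 1 SE and filled symbols were called (adjusted p under 0.05 and at least 2-fold). All otx1 symbols are filled and above 0, osr1 is filled in 6 cocktails, and irx7 is filled only in the blue fit, in Cocktails 1, 3 and 8.

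Whether the 8 cocktails differed among themselves was tested without reference to the control. With all libraries osr1 differed among cocktails (edgeR quasi-likelihood test, adjusted p = 0.0486) and otx1 did not pass (adjusted p = 0.0850); 2.46% of all genes tested were called. Without Cocktail 1 replicate 1 both were called (adjusted p = 0.0456 and 0.0217), where 5.57% of all genes were. The call of osr1 is weak: it held in 5 of the 18 fits that leave out 1 library and was lost without either library of Cocktails 2, 4, 6, 7 or 8, replicate 1 of Cocktail 5 or either control, with adjusted p of up to 0.131. The adjusted p of otx1 ran from 0.000146 to 0.232 over those fits.

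For osr1 the 2 libraries of Cocktail 7 had 20.1 and 25.2 CPM, those of Cocktail 6 20.05 and 16.6, those of Cocktail 3 17.6 and 14.1, and those of Cocktail 2 11.3 and 17.95. Lower values were found in Cocktail 5 (5.35 and 12.1 CPM), Cocktail 8 (6.72 and 10.3), Cocktail 4 (5.15 and 7.43) and replicate 2 of Cocktail 1 (6.08). Neighbours in this order overlapped, apart from Cocktails 7 and 6, which were separated by less than either pair's spread. The lowest library of the first 3 cocktails, at 14.1 CPM, was above every library of the last 4. These sets were read off the order itself, so the gap carries no test.

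The order for otx1 was another. Its 2 libraries had 157 and 158 CPM in Cocktail 4, 140 and 144 in Cocktail 3, 118 and 151 in Cocktail 5, and 104 and 104 in Cocktail 2, while replicate 2 of Cocktail 1 had 110. The lowest values were those of Cocktail 8 (95.3 and 92.0 CPM), Cocktail 7 (86.8 and 96.9) and Cocktail 6 (94.5 and 79.3), which overlapped. Every library of Cocktails 1 to 5 was above every library of Cocktails 6 to 8. That split was read off the order of otx1 itself, so it describes these values and carries no test. The orders of the 2 genes differed. Cocktails 6 and 7 had low otx1 and the highest osr1 among the cocktails, but Cocktail 8, whose otx1 libraries lay within the span of Cocktail 7, had an osr1 change of -2.27 ± 0.49 (edgeR adjusted p = 0.00444), and Cocktail 3, with high otx1, was among the cocktails with higher osr1.

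The genes whose pattern was most like that of each of the 7 were sought among 14012 named genes with a mean of at least 1 CPM. Likeness was the root mean square difference of the log2 level relative to the control over the 15 other cocktail libraries. For otx1 the nearest were si:dkey-19b23.8 (0.12 log2 units), zgc:162592 (0.17) and aldh7a1 (0.20), and in Cocktail 1 replicate 1, which the measure left out, these were at 2.27, 2.65 and 1.71 beside 2.64 for otx1. For foxi1 they were si:ch211-217k17.7 (0.16), fabp3 (0.17) and ckbb (0.19). In Cocktail 1 replicate 1 these stood at 0.41, 0.59 and 0.20, against -4.74 for foxi1.

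The same was found for klf17 and irx7. The nearest to klf17 were zgc:114200 (0.21), coq10b (0.22) and mrps6 (0.23), which lay between -0.31 and 0.10 in Cocktail 1 replicate 1, where klf17 lay at -6.48. The nearest to irx7 were si:ch73-340n8.4 (0.21), ube2d3 (0.22) and tmem97 (0.23), which lay between 0.99 and 1.03 there, against -3.06. In that library klf17, irx7 and foxi1 were far below all 3 of their nearest genes. There otx1 was close to zgc:162592 and above si:dkey-19b23.8 and aldh7a1. The library was set apart beforehand for its low early zygotic transcripts. Only 2.44% of all genes tested lay at least 8-fold below replicate 2 there, with klf17, irx7 and foxi1 among them. Genes matched on the other libraries were thus unlikely to share the drop, so these gaps describe that library and carry no test. Matches were looser for osr1, with gpr137 (0.49), fgf8a (0.51) and tnfaip8l2b (0.51), for tp63, with zmat4a (0.64), ftr81 (0.68) and zgc:114123 (0.69), and for irx1b, with nab1b (0.67), fthl28 (0.71) and nle1 (0.73). In Cocktail 1 replicate 1 the 3 nearest to tp63 lay between 1.19 and 2.08 beside 2.1 for tp63, those of irx1b between -1.01 and -0.66 beside -0.54, and those of osr1 between -6.40 and -2.42 beside -4.06.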

How the data were processed

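Per the labels' protocols, total RNA of whole embryos was extracted with a spin-column kit and libraries were made with Nextera XT, which does not mark the strand, so a gene and an antisense partner cannot be told apart. The authors deposited raw read counts per gene and, per library, a second set of values taken here as TPM. All libraries sum to the same total in that set, which would hold for CPM too, but its ratio to CPM differed between genes. In the control means ved had 254 CPM and 773 TPM, and the mesendoderm gene tbx16 had 1252 CPM and 390 TPM. The scaling by gene length was inferred and not checked. The submitters' processing notes name bcl2fastq 2.20 and danRer11; the aligner, the counter and the annotation were not given in the sources used here. The 4 rows that name no gene (22.6% to 55.5% of the reads) were left out, and genes that share reads with copies are uncertain.

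Groups came from sample titles. Counts were TMM-scaled and tested with the quasi-likelihood test of edgeR 4.0.16 (R 4.3.3, robust, minimum count 10, Benjamini-Hochberg over all genes tested), with 1 coefficient per group over all 18 libraries, and tested on simulated data. The log2 levels used a prior count of 2. Each SE of an edgeR log2 change was back-computed, as its absolute value divided by the square root of the test's F statistic. Results were recomputed with DESeq2 1.42.0, with RLE size factors, without the filter, with a replicate block, on the compared groups alone, at other fold minimums, with limma 3.58.1 on log2(TPM + 1) or log2(TPM + 0.1), which understates low genes, and with each library left out. The genes and lists were chosen with earlier results of these data known. Beyond the 7 genes, each list's 3 largest called changes and its most abundant tested member (control TPM) were named, plus genes needed to account for counts of 5 or fewer and for Cocktail 1 replicate 1, chosen after their values were seen; some genes that this rule names are not reported here. Enveloping layer, yolk syncytial and germ plasm markers are given as sums, with a few members named after their values were seen.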

Additional observations from a re-analysis of the deposited data

Results flagged for a closer look

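Of the 7 genes, 1 differed among the cocktails with all 18 libraries, where 2.46% of all genes were called, and 2 did without Cocktail 1 replicate 1, where 5.57% were. For osr1 the adjusted p was 0.0486 and 0.0456 (edgeR quasi-likelihood test). For otx1 it was 0.0850 and 0.0217. With each of the 18 libraries left out in turn, osr1 was called in 5 fits and otx1 in 3. The other value is from reads outside the gene counts: the median share of reads that mapped nowhere was 28.4% in the 16 cocktail libraries, above the 10.1% and 10.8% of the controls. It was 22.2% in Cocktail 1 replicate 1, near the low end of the cocktail libraries.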

How the results depend on the processing

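The fall of osr1 and the rise of otx1 in the mean of the cocktails kept direction and call in all 24 alternatives run for each (adjusted p up to 0.0135 and 0.00606). Leaving out 1 library at a time, osr1 ran from -2.19 to -1.66, otx1 from 1.48 to 1.70, klf17 from -1.33 to -0.55, irx7 from 0.36 to 1.00, irx1b from -1.40 to -0.77, tp63 from 0.66 to 2.105 and foxi1 from -0.34 to 0.40 (log2). The sign of foxi1 turned, to -0.34, without Cocktail 1 replicate 2, and irx1b passed under none of its alternatives. The number of genes lower ran from 1 to 2, of those higher from 1 to 2, of pairs with a cocktail lower from 3 to 9 and higher from 4 to 11, and of genes that differed among cocktails from 0 to 5, the last without Cocktail 1 replicate 2. With no filter on low counts, 2 were lower and 2 higher, as klf17 (-0.68, adjusted p = 0.000953) and irx7 (0.82, adjusted p = 0.00798) passed, and 3 differed among cocktails. In that fit 2431 of 24993 genes tested were lower and 2055 higher. DESeq2 gave 2 that differed among cocktails, and limma on TPM gave 0 with either pseudocount (osr1 adjusted p = 0.0552 and 0.0749). A minimum of 4-fold left 1 pair higher and 4 lower. For pairs and for differences among cocktails, shares over all genes were computed only in the main fit and in that without Cocktail 1 replicate 1. Over all genes the share of higher calls was 52.6%, against 45.8% with RLE size factors or no filter, 48.0% without Cocktail 1 replicate 1, and 67.0% and 72.9% by limma on TPM, where the median gene lay at 0.15 log2 units. Over all genes tested, 1 of 36 correlations of replicate differences was above 0.1, so replicate numbers showed no broad pairing of the libraries. A pairing that touched few genes would not be seen by this check. With the replicate block the counts were 1 lower and 1 higher, and 6 and 8 pairs, as without it. The causes of these shifts were not tested. Counts of 0 to 17 limit irx1b, and of 1 to 63 tp63.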
